A study of Drosophila melanogaster with 6 samples.

Results

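The 9 genes followed here carry the insulin signal from the cell surface to the FOXO transcription factor and to the TOR kinase: InR, chico, Pi3K92E, Pi3K21B, Akt, foxo, Thor, S6k and Tor. They were chosen by their FlyBase symbols among the 24278 entries of a count table for Drosophila larval intestine, 17895 of which are genes. Each symbol matched 1 entry, with Tor written mTor in the name table, and all 9 genes were among the 12193 entries that passed the filter on low counts and were tested.

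In insulin signalling, insulin-like peptides bind the receptor InR, whose adaptor Chico recruits a phosphoinositide 3-kinase that activates the kinase Akt. Akt keeps FOXO out of the nucleus. When the signal is low, as in starved larvae, FOXO enters the nucleus and transcribes target genes, which in flies include InR itself and Thor. The TOR kinase, in a complex with Raptor, promotes growth by phosphorylating S6k and the Thor protein (4E-BP), and Thor that is not phosphorylated binds eIF4E and restrains cap-dependent translation.

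The count table compares 2 larval genotypes, called control and EcRi, by the RNA of the whole gut. Ecdysone synthesis was blocked in both, and EcRi larvae in addition expressed a hairpin against EcR, the gene of the ecdysone receptor, in enterocytes, the absorptive cells of the gut. The paper states that EcR without its hormone represses its target genes. It used the knockdown to release these targets, so EcRi was meant to activate ecdysone targets in enterocytes. Both genotypes carried LexO-spok RNAi under Tub-LexA, which removes an enzyme of ecdysone synthesis, as well as Tub-GAL80ts and UAS-EcR RNAi. According to the crosses in the study's methods, EcRi larvae also carried Myo1A-GAL4 and control larvae carried no GAL4 driver, whereas the sample titles call the controls myo1a-con. If the crosses apply, the presence of GAL4 and the knockdown cannot be told apart. After 8 h of egg laying, animals were raised for 6 days at 18 °C, to the molt into the last larval stage, and then for 4 days at 29 °C, where the repressor GAL80ts is inactive. There were 3 libraries per genotype, labelled as biological replicates. Sex and the number of larvae per library were not given in the sources used here.

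The libraries held between 200890663 and 246255664 counts. Libraries were scaled with TMM factors from edgeR, which assume that most genes do not differ, and levels are given as TMM-normalized CPM, a gene's count relative to the scaled size of its library. The TMM factors were at most 0.845 in the control and at least 1.21 in EcRi, so the scaling itself separated the genotypes. Of all tested entries, 59.5% differed between the genotypes (quasi-likelihood test of edgeR, Benjamini-Hochberg adjusted p below 0.05), with 30.1% higher and 29.3% lower in EcRi. Errors of log2 fold changes are standard errors (SE). The hairpin's target, EcR, had 33.5 ± 10.5 CPM in control larvae and 29.9 ± 1.87 CPM in EcRi larvae (SD, n = 3 each; edgeR adjusted p = 0.517), so its level in the whole intestine did not check the labels.

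Of the 9 genes, 7 were higher in EcRi, 1 was lower and 1 did not pass the test, so that 8 of 9 differed against 59.5% of all tested entries. Thor rose most, by 11.6-fold, followed by InR at 5.78-fold. Between them and the remaining genes there was a gap: foxo, chico, Pi3K92E and Akt rose by between 1.85- and 2.15-fold and S6k by 1.40-fold. Pi3K21B was 1.45-fold lower and Tor did not pass. The libraries of the 2 genotypes did not overlap for 8 of the 9 genes, against 68.3% of all tested entries. For 5 genes, InR, chico, Pi3K92E, foxo and Thor, the log2 fold change was above 1 with an adjusted p below 0.05, against 16.7% of all tested entries. The median log2 fold change of the 9 genes was 1.02, against 0.03 over all tested entries. Because the 9 genes were chosen with earlier results of these data known, these contrasts describe them and do not test the pathway.

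**Figure D1:**
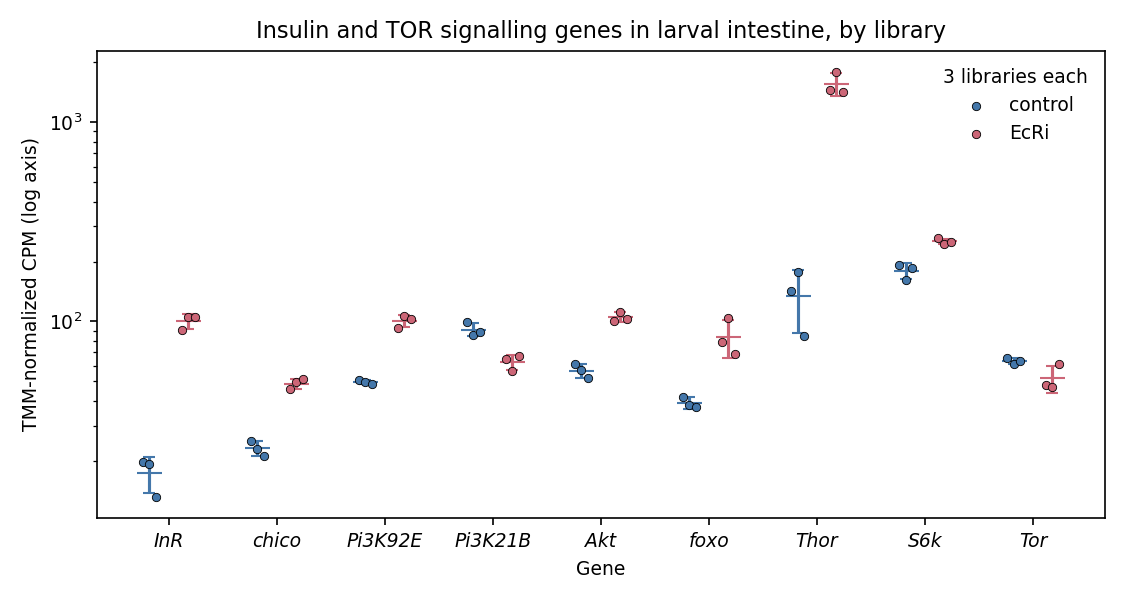
TMM-normalized CPM (log axis) of the 9 genes in each library, with points for the 3 control (blue) and 3 EcRi (red) libraries and bars for the mean ± SD. Thor lies between 84.2 and 176 CPM in control larvae and between 1424 and 1790.3 CPM in EcRi, Pi3K21B is the gene whose EcRi libraries all lie below the control, and Tor is the gene whose groups overlap.

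InR, the insulin receptor gene (FBgn0283499), maps to chromosome 3R, 21570248 to 21619321, minus strand (BDGP6, 4 annotated transcripts). Its level was 19.6, 19.2 and 13.2 CPM in control replicates 1 to 3 and 90.3, 106 and 105 CPM in EcRi replicates 1 to 3. Every EcRi library was thus at least 4.6 times as high as the highest control library, and control replicate 3 was the lowest of all. The log2 fold change of InR was 2.53 (SE 0.17, edgeR adjusted p = 1.76e-05), and 6.95% of tested entries had a larger one. A rise in RNA from whole intestines may come from more RNA per cell or from more cells of a type that express the gene, and these cannot be told apart here. InR gave the smallest count of any of the 9 genes in a library, 2083, whose 95% Poisson interval reaches from 1994 to 2174, so counting error was small beside the spread between libraries.

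The adaptor gene chico (FBgn0024248) maps to chromosome 2L, 10242512 to 10247078, minus strand. It had 25.2, 23.0 and 21.1 CPM in control libraries and 45.8, 49.4 and 51.2 CPM in the EcRi libraries, so the groups were well apart and varied little within. For chico the log2 fold change was 1.08 (SE 0.09, edgeR adjusted p = 5e-05). An antisense RNA gene, asRNA:CR44995, shares 380 exonic bases with chico on the other strand. Whether the counting used strand was not given, so reads of the 2 genes may not be separated there.

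Phosphoinositide 3-kinase consists of a catalytic subunit, encoded by Pi3K92E, and a regulatory subunit, encoded by Pi3K21B, and the transcripts of these subunits moved apart. Pi3K92E (FBgn0015279, chromosome 3R, 20628972 to 20634732, minus strand) had 51.0, 49.5 and 48.4 CPM in control larvae and 93.0, 107 and 103 CPM in EcRi. All EcRi libraries were higher than all control libraries, with a log2 fold change of 1.02 (SE 0.09, edgeR adjusted p = 4.24e-05). Pi3K21B (FBgn0020622, chromosome 2L, 297880 to 305233, plus strand) had 98.9, 85.7 and 88.5 CPM in control larvae and 64.6, 56.6 and 66.8 CPM in EcRi. It was lower in all EcRi libraries, with a log2 fold change of -0.54 (SE 0.10, edgeR adjusted p = 0.00234), but this call depended on the scaling. With library totals in place of TMM the log2 fold change of Pi3K21B was 0.11 (adjusted p = 0.473), and with totals that leave out the 100 most abundant entries it was -0.18 (adjusted p = 0.195).

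The ratio of the 2 subunit transcripts within a library does not depend on any scaling. For each read of Pi3K21B there were 0.516, 0.578 and 0.547 reads of Pi3K92E in control libraries and 1.44, 1.89 and 1.55 in the EcRi libraries. Reads of the regulatory subunit were thus the more frequent in every control library and those of the catalytic subunit in every EcRi library. On the log2 scale the ratio was -0.87 ± 0.08 in the control and 0.69 ± 0.20 in EcRi (SD, n = 3 each), a difference of 1.56. This ratio was chosen after the values had been seen.

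Akt (FBgn0010379), which encodes the kinase that phosphorylates FOXO, maps to chromosome 3R, 16099228 to 16105670, plus strand. Its level was 60.8, 57.2 and 51.9 CPM in control larvae and 99.98, 112 and 103 CPM in EcRi. The log2 fold change of Akt was 0.89 (SE 0.09, edgeR adjusted p = 0.000127), with no overlap between the groups. The gene foxo (FBgn0038197, chromosome 3R, 14056945 to 14087978, plus strand) had 41.9, 38.0 and 37.1 CPM in control larvae and 79.0, 104 and 68.8 CPM in EcRi. Its EcRi libraries varied more than those of chico or Akt, with replicate 2 the highest, yet none came near the control. The log2 fold change of foxo was 1.11 (SE 0.15, edgeR adjusted p = 0.00057), and it was 0.92 without EcRi replicate 2.

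Thor (FBgn0261560) encodes 4E-BP, the translational repressor that TOR inactivates, and is a known FOXO target in flies. The gene is short, with 755 exonic bases in 2 annotated transcripts, and maps to chromosome 2L, 3478434 to 3479612, plus strand. Its level was 143, 176 and 84.2 CPM in control libraries and 1459, 1790.3 and 1424 CPM in the EcRi libraries. Although the control libraries spanned 2.09-fold, the lowest EcRi library was 8.08 times as high as the highest control library. The log2 fold change of Thor was 3.54 (SE 0.29, edgeR adjusted p = 5.01e-05), which placed it at position 530 from the top among 12193 tested entries. The change was also visible without any scaling: ordered by raw count among all genes, Thor stood at positions 1132, 936 and 1826 in control libraries and at positions 73, 52 and 68 in the EcRi libraries. InR moved up in the same way, from positions between 4364 and 5153 to positions between 1281 and 1495.

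At the TOR kinase, the gene of the substrate S6k rose by less than the genes above, and that of the kinase itself did not pass the test. S6k (FBgn0283472, chromosome 3L, 5797549 to 5810931, minus strand) had 192, 161 and 185 CPM in control larvae and 261, 245 and 249.7 CPM in EcRi. The groups did not overlap, and the log2 fold change of S6k was 0.49 (SE 0.10, edgeR adjusted p = 0.0039). With library totals in place of TMM it was 1.14. Tor (FBgn0021796, chromosome 2L, 13004480 to 13013197, plus strand) had 65.8, 61.0 and 63.1 CPM in control larvae and 48.1, 46.6 and 61.1 CPM in EcRi. EcRi replicate 3 lay within the control range, and the other EcRi libraries below it. The log2 fold change of Tor was -0.29 (SE 0.12, edgeR adjusted p = 0.0665). Without EcRi replicate 3 it was -0.42 (adjusted p = 0.00519), and with library totals it was 0.37 (adjusted p = 0.0526), so neither a direction nor the lack of a difference can be given for Tor.

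Two-sided exact permutation tests on the log2 CPM of single genes gave p = 0.2 for Tor and p = 0.1 for each of the other 8 genes, where 0.1 is the smallest p that 3 libraries against 3 allow. The replicates of a genotype differed by more than sampling noise, and no library was a copy of another.

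To compare levels between genes, CPM were divided by the exonic length in kilobases. In the control, Thor had the highest level, with 178 ± 61.7 CPM per kb (SD, n = 3), followed by S6k with 36.8 and Pi3K21B with 18.4 CPM per kb. Akt, Pi3K92E, foxo, Tor and chico followed between 11.6 and 6.46 CPM per kb, and InR was lowest with 1.53 ± 0.32 CPM per kb. Of these neighbours, only Pi3K92E and foxo overlapped between libraries. In EcRi, Thor reached 2063 ± 268 CPM per kb (SD, n = 3) and S6k 51.6 CPM per kb. Akt, Pi3K92E and foxo then followed with 21.5, 20.9 and 20.3 CPM per kb, and their libraries overlapped, as did those of chico (13.6 CPM per kb) and Pi3K21B (12.7 CPM per kb). In the order of levels, Pi3K21B thus went from position 3 to position 7, and InR, with 8.82 ± 0.76 CPM per kb, passed Tor, which had 6.51 ± 0.999 CPM per kb.

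Ratios between genes within a library, here not corrected for length, showed which of them changed by unequal amounts, whatever the scaling. There were 7.27, 9.18 and 6.38 reads of Thor for each read of InR in control libraries and 16.2, 17.0 and 13.6 in the EcRi libraries. Relative to foxo, Thor had 3.41, 4.64 and 2.27 reads in the control and 18.5, 17.2 and 20.7 reads in EcRi. Thor therefore rose beyond InR, by 1.04 on the log2 scale, and beyond foxo, by 2.51. InR in turn had 0.469, 0.505 and 0.356 reads for each read of foxo in the control and 1.14, 1.01 and 1.53 in EcRi, a difference of 1.46 on the log2 scale. For each read of Tor there were 2.92, 2.64 and 2.93 reads of S6k in the control and 5.43, 5.27 and 4.08 in EcRi, a pair chosen after the values had been seen. For none of these pairs did the libraries of the genotypes overlap.

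**Figure D2:**
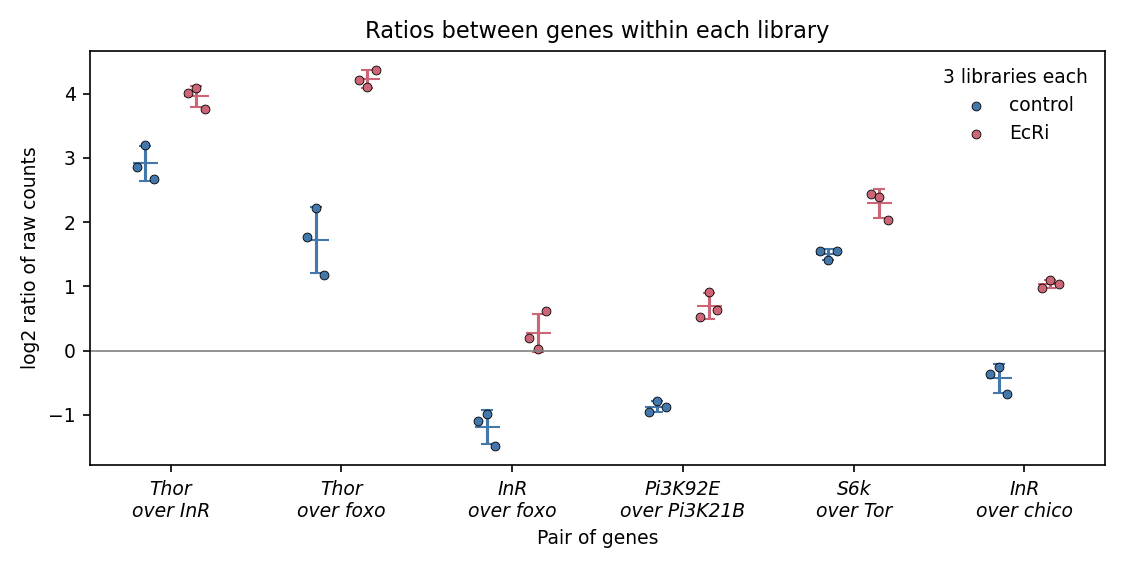
Log2 ratio of the raw counts of 2 genes in each library, with points for the 3 control (blue) and 3 EcRi (red) libraries and bars for the mean ± SD. The ratio of Pi3K92E to Pi3K21B goes from -0.87 in the control to 0.69 in EcRi, and that of Thor to foxo from 1.72 to 4.23.

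The choice of scaling shifted all genes together. With library totals, the median over all tested entries, on the log2 scale, was 0.68 in place of 0.03, and 81.9% of the called entries were higher in place of 50.7%. The genes InR, chico, Pi3K92E, Akt, foxo, Thor and S6k were higher in EcRi and passed the test with both scalings. Relative to the median of all entries, the log2 fold change of Thor was 3.50 with TMM and 3.48 with totals, and that of InR was 2.50 and 2.48. Pi3K21B was 0.57 below the median of all entries with either scaling, and Tor 0.32 and 0.31 below it. Because a change of scaling moves each gene and the median nearly alike, these differences could hardly change and do not test the calls.

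**Figure D3:**
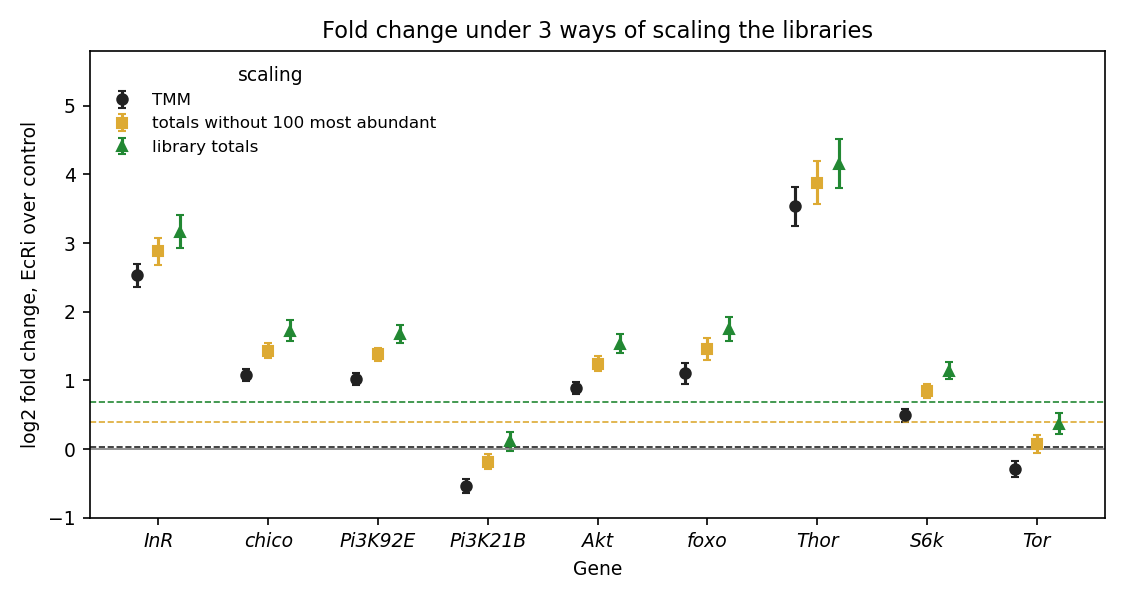
Log2 fold change of EcRi over control (points, with the standard error as bars) for the 9 genes with TMM, with totals that leave out the 100 most abundant entries, and with library totals. Dashed lines mark the median of all tested entries for each scaling, at 0.03, 0.39 and 0.68, and only Pi3K21B and Tor lie on both sides of 0.

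Further genes of the pathway were followed as a list of 69 symbols ordered by role, 65 of which were tested. Of these, 26 were higher and 16 were lower in EcRi (40.0% and 24.6%, against 30.1% and 29.3% of all tested entries), and their median log2 fold change was 0.09. With library totals all 26 stayed higher, whereas of the 16 lower genes only slif stayed lower, 11 changed sign, and 4 of these, Tsc1, RagC-D, Iml1 and Maf1, were called higher. The next paragraphs name the genes past a log2 fold change of 1 with at least 1 CPM in a genotype, 10 of which were higher and 2 lower, and some further members of each role. An absolute change of this size, with an adjusted p below 0.05 and the same minimum level, was seen in 22.3% of all tested entries.

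Among ligands and secreted regulators, 6 of 10 genes were tested. Of these, 3 were higher and 2 lower (50.0% and 33.3%, against 30.1% and 29.3% of all tested entries). Ilp6, an insulin-like peptide that the larval fat body makes when feeding stops, had 1.18, 1.20 and 0.646 CPM in control larvae and 9.62, 9.22 and 14.4 CPM in EcRi. On the log2 scale Ilp6 rose by 3.45 (SE 0.30, edgeR adjusted p = 9.18e-05). The fat body marker list summed to 496, 119 and 38.4 CPM in control larvae and 380, 224 and 1106 CPM in EcRi. The lowest control and the highest EcRi library were the same for Ilp6 and for this list. The list overlapped between the genotypes and Ilp6 did not. Control replicate 1 lay above EcRi replicates 1 and 2 for the list only, mostly through Lsp1beta, at 389 CPM there. Within the list, Fbp1 did not overlap either, with 7.05, 0.948 and 1.07 CPM in control larvae and 201, 84.1 and 416 CPM in EcRi. The list's other genes, Lsp1beta, Lsp2, Fbp2 and apolpp, overlapped. The part of fat body in the Ilp6 result was not tested. ImpL2, a secreted protein that binds insulin-like peptides and inhibits signalling, had 16.01, 17.3 and 10.6 CPM in control larvae and 76.1, 93.2 and 104.9 CPM in EcRi, a rise of 6.24-fold (edgeR adjusted p = 5.75e-05). Ilp8, a relaxin-like peptide known from damaged imaginal discs, had no counts in control libraries and 19, 12 and 18 counts in EcRi, which is at least 3.50-fold higher than a floor of 3 counts per control library.

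The lower genes of this role were Ilp3 and Sdr, a secreted decoy receptor for insulin-like peptides. Ilp3, which is known from brain neurosecretory cells and from gut muscle, had 11.0, 12.9 and 10.2 CPM in control larvae and 6.66, 4.90 and 4.43 CPM in EcRi. Its log2 fold change was -1.09 (edgeR adjusted p = 0.00103), and -0.45 with library totals (adjusted p = 0.0578). All 6 genes of the visceral muscle list were lower in EcRi with TMM as well, against 29.3% of all tested entries. Their log2 fold changes lay between -2.30 (Act57B) and -0.52 (Tm1). Together they had between 2665 and 3122 CPM in control larvae and between 998 and 1155 CPM in EcRi. The part of muscle in the Ilp3 result was not tested. Sdr fell from 2.96 to 1.49 CPM on average (edgeR adjusted p = 0.0026), with a log2 fold change of -0.99 and of -0.33 with library totals, and Ilp5 had a log2 fold change of -0.90 with overlapping groups (edgeR adjusted p = 0.328). Ilp1, Ilp2, Ilp4 and Ilp7 had at most 4 counts in any library and were not tested.

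Of 7 adaptors and regulators near the receptor, 6 were higher (85.7%, against 30.1% of all tested entries) and 1 did not pass the test. Socs36E, a suppressor of cytokine signalling best known as a target of JAK/STAT signalling, had 42.5, 77.2 and 31.4 CPM in control larvae and 438, 617 and 381 CPM in EcRi, a rise of 9.50-fold (edgeR adjusted p = 0.000704). Lnk, an SH2B adaptor that acts with Chico, rose by 2.25-fold, from 24.0 ± 0.13 to 54.2 ± 1.48 CPM (SD, n = 3 each). Ptp61F, a tyrosine phosphatase related to mammalian PTP1B, rose by 2.54-fold. The adaptors dock and drk rose by 1.81- and 1.37-fold and step, an Arf exchange factor needed for insulin signalling, by 1.67-fold. The exception was poly, with a log2 fold change of -0.02.

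Between phosphoinositide 3-kinase and Akt, 3 of 8 genes were higher and 5 did not pass the test. Pdk1, the kinase that activates Akt, rose by 2.10-fold, from 83.0, 77.9 and 70.1 CPM to 153, 158 and 173 CPM. The tribbles gene trbl, whose product binds and inhibits Akt, rose by 2.39-fold, and rictor, a subunit of TOR complex 2, by 1.43-fold.

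Of 7 genes linked to FOXO, the deacetylase genes Sirt1 and Sirt2 and the kinase gene Lk6, a FOXO target whose product phosphorylates eIF4E, were higher, with log2 fold changes of 0.65, 0.45 and 0.71. The kinase gene sgg (GSK3) and srl, the fly homolog of PGC-1, were lower, both at -0.61 with TMM and at 0.04 and 0.03 with library totals. The lipase genes bmm and Lip4, which are known to rise in starved flies under FOXO, had log2 fold changes of -0.17 (edgeR adjusted p = 0.378) and 0.06 (adjusted p = 0.669). Both overlapped between the genotypes with TMM. With library totals bmm was at 0.48 and not called, whereas Lip4 was at 0.70 and called higher. With totals that leave out the most abundant entries, bmm was at 0.19 and not called. Lip4 was at 0.42 with that scaling and again called higher, so its lack of a call depended on the scaling.

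Upstream of TOR, Rheb, the GTPase that activates TOR complex 1, rose by 1.94-fold, from 67.6 ± 3.47 to 130.9 ± 17.6 CPM (SD, n = 3 each), and scyl, an inhibitor of TOR signalling, by 1.30-fold. Tsc1 and Tctp were lower, at -0.25 and -0.56 on the log2 scale, and at 0.40, called higher, and 0.09 with library totals. Tsc1's partner gig, as well as chrb and sima, did not pass the test. In TOR complex 1 itself, the gene of the inhibitor PRAS40 was higher (log2 fold change 0.45) and Lst8 lower (-0.41, and 0.24 with library totals), and raptor had a log2 fold change of 0.33 (edgeR adjusted p = 0.0569).

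The amino acid branch held the largest fall of the list. The cationic amino acid transporter gene slif (slimfast) had 445, 367 and 524 CPM in control larvae and 48.6, 15.4 and 42.4 CPM in EcRi, 12.6-fold lower (log2 fold change -3.65, SE 0.47, edgeR adjusted p = 0.00104). It was lower in every EcRi library and with each of the 3 scalings, at -2.99 with library totals. The gene path (pathetic), another amino acid transporter, had 39.5, 74.3 and 29.2 CPM in control larvae and 106, 139 and 111 CPM in EcRi, 2.49-fold higher (edgeR adjusted p = 0.02). Its call was lost with no filter on low counts (adjusted p = 0.062), without control replicate 1 (adjusted p = 0.0658), without EcRi replicate 1 (0.0512) or without EcRi replicate 2 (0.0754), while its log2 fold change in these fits lay between 1.18 and 1.39, against 1.32 with all libraries and the filter. Of the 8 Rag and GATOR genes, Wdr59 was higher (0.84 on the log2 scale), and RagC-D, Nprl2 and Iml1 were lower with changes between -0.38 and -0.26 that turned positive with library totals, where RagC-D and Iml1 were called higher.

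In the AMPK branch, which restrains TOR when energy is low, AMPKalpha and SNF4Agamma, the catalytic and the regulatory gamma subunit, were higher, with log2 fold changes of 0.59 and 0.48. Lkb1, the kinase that activates AMPK, fell from 33.9 to 19.8 CPM on average (log2 fold change -0.77, edgeR adjusted p = 0.000124), and was at -0.12 with library totals. Among 12 genes of translation and growth, 4 were higher and 4 lower (33.3% each, against 30.1% and 29.3% of all tested entries). Atg1, which starts autophagy and is held in check by TOR, had 25.9, 25.7 and 22.4 CPM in control larvae and 73.9, 76.5 and 91.6 CPM in EcRi, a rise of 3.28-fold (edgeR adjusted p = 1.53e-05). REPTOR and REPTOR-BP, transcription factors that act when TOR complex 1 is inhibited, were higher, with log2 fold changes of 0.59 and 1.01, and so was Myc, at 0.55. The translation factor genes eIF4E1, the partner of Thor, and eIF4G1 were lower, at -0.55 and -0.68 on the log2 scale, as were Maf1 and Mitf at -0.25 and -0.61. With library totals these 4 genes were at 0.10, -0.03, 0.40 and 0.04, and Maf1 was called higher. RpS6, which encodes the ribosomal substrate of S6k, had a log2 fold change of -0.37 (edgeR adjusted p = 0.0575).

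**Figure D4:**
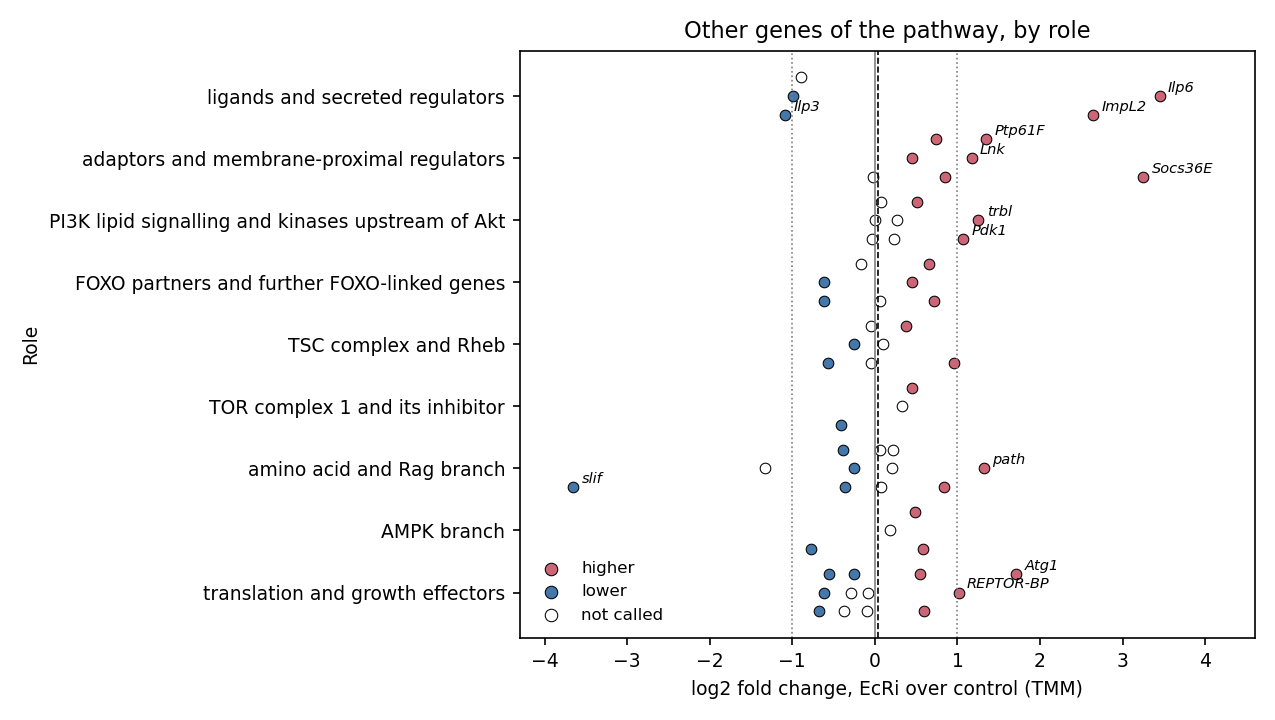
Log2 fold change of EcRi over control with TMM for 64 listed genes by role (each point is a gene, red for higher, blue for lower, white for not called; Ilp8, at 0 counts in the control, is left out). The dashed line marks the median of all tested entries, 0.03, and dotted lines mark 1 and -1; Ilp6 at 3.45 and Socs36E at 3.25 lie farthest to the right and slif at -3.65 farthest to the left.

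Summed levels of several cell type marker lists also differed between the genotypes. Sums and calls of marker genes are those with TMM, and the calls stand beside 30.1% higher and 29.3% lower of all tested entries. With library totals the median log2 fold change over all tested entries was 0.68 in place of 0.03. Marker values with that scaling are not given, so small falls, as of mex1, Vha100-4 and elav, may depend on the scaling. The enterocyte genes Myo31DF and mex1 were present in all libraries, at 642 CPM or more and 214 CPM or more. The 5 enterocyte genes together had 17930 to 28750 CPM in control larvae and between 4608 and 7539 CPM in EcRi, mostly through the digestive protease Jon65Aiii. The 3 lower genes, Jon65Aiii, mex1 and Vha100-4, had log2 fold changes of -2.11, -0.43 and -0.33, and 1 gene, nub, was higher at 0.80. The 6 tracheal genes summed to between 84.2 and 125 CPM in control larvae and between 641 and 717 CPM in EcRi, with 5 higher. Most of this sum came from serp and verm, with log2 fold changes of 3.19 and 2.86, while trh, Gasp and vvl were at 1.34, 1.30 and 0.38 and btl at 0.18 (edgeR adjusted p = 0.409). The 4 progenitor genes summed to between 23.6 and 30.8 CPM for the control and 39.1 to 56.3 CPM for EcRi, with 3 higher. The lists for enteroendocrine cells, haemocytes and fat body overlapped between the genotypes, and among their genes Fbp1, a fat body protein, was called higher. The neuron list summed to 121 CPM or more in EcRi against at most 88.1 CPM, mostly through Syt1 (log2 fold change 0.68), whereas elav was called lower (-0.39). The 5 fore- and hindgut genes summed to 213 CPM or more against at most 187 CPM, with fkh and wg called higher (0.82 and 0.90) and byn and bowl at -0.21 and 0.0038. None of the 45 marker genes was at 0 in all libraries. The part of these differences in the changes of the 9 genes was not tested.

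For each called gene, the gene nearest in pattern was found by the root mean square difference of centred log2 CPM over the 6 libraries. The nearest to chico was Pdk1, at a difference of 0.03, and the nearest to Thor was mfas, at 0.10, with 69.5, 85.7 and 49.9 CPM in control larvae and 721, 890 and 704 CPM in EcRi. For InR it was sona (0.08), for Pi3K92E Klp98A (0.04), for Akt slim (0.02), for foxo Rab7 (0.07), for S6k bdwf (0.03) and for Pi3K21B gish (0.04). These values describe 6 libraries in 2 genotypes.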

How the data were processed

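Raw counts of 6 RNA-seq libraries were analysed. According to the methods, the authors worked on Galaxy: adaptors were removed (Trim Galore!), reads were aligned to dm6 (HISAT2) and reads per Ensembl gene were counted (featureCounts). The deposited counts are whole numbers without normalization. Tool versions, strand and multi-mapping settings were not given in the sources used here. The labels name a Qiagen RNeasy kit and a SMARTER library preparation, and the methods TRIZOL. Coordinates and exonic lengths were taken from Ensembl's BDGP6 annotation, which has dm6 coordinates. Symbols were found for 99.8% of the 17895 genes.

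The genotypes were compared with edgeR 4.0.16 under R 4.3.3 (filterByExpr, TMM, robust quasi-likelihood test, Benjamini-Hochberg adjustment over 12193 entries, threshold 0.05). The standard error is the log2 fold change divided by the square root of F. The alternatives were limma 3.58.1 (voom, named by the authors), DESeq2 1.42.0, RLE factors, totals with and without the 100 most abundant entries, no filter, at least 10 counts in every library, genes only, the replicate number as a block, and each library left out. The fit was tested on simulated counts in which few genes changed, about equally up and down. That simulation could not test the choice of scaling, because far more entries differed in the real libraries. Intervals and floors (3 counts) cover counting error only. Log2 CPM used a prior count of 2.

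Named are the 9 genes, EcR, list genes with an absolute log2 fold change of at least 1, an adjusted p below 0.05 and at least 1 CPM in a genotype, genes of counts of 5 or fewer, and the nearest gene in pattern. Other list genes were named after their values were seen. The members and lists were chosen with earlier results of these data known. Values of 1 list gene are not reported here.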

Additional observations from a re-analysis of the deposited data

How the results depend on the processing

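Over 135 comparisons of the 9 genes with 15 alternatives each, 130 kept their direction and their side of the threshold. With library totals, Pi3K21B was at 0.11 and Tor at 0.37 on the log2 scale, and EcR at 0.47. With totals that leave out the 100 most abundant entries, Pi3K21B was at -0.18, Tor at 0.075 and EcR at 0.18. Over the fits that each left out 1 library, Tor lay between -0.42 and -0.21, passing the threshold without EcRi replicate 3, and EcR lay between -0.30 and 0.10, above 0 without control replicate 1. The median of the 9 genes was 1.68 with library totals and 1.38 with totals without the most abundant entries. Library totals gave 6982 higher and 1546 lower entries, and 48 higher and 1 lower of the pathway list. Totals without the most abundant entries gave 5619 and 2290, and 41 and 5. By construction these scalings move all genes together, so that calls near 0 change side.

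The replicate numbers did not pair the libraries: deviations from the genotype mean correlated at -0.06, 0.04 and -0.06 between libraries of the same number, and the highest correlation, 0.08, was between control replicate 3 and EcRi replicate 1. With the replicate number as a block, 3328 entries were higher and 3327 lower, and all 9 genes kept their call, with Thor at 3.59 and Tor at -0.30. The block changed the SE in either direction, for Thor to 0.21 from 0.29 and for chico to 0.11 from 0.09. At this depth the spread between 3 libraries, not counting error, limits what can be called.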
